A study of Mus musculus with 12 samples.

Results

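The genes examined were 9 markers of hepatic progenitor and biliary epithelial cells, *Prom1*, *Sox9*, *Epcam*, *Cdh1*, *Krt7*, *Krt8*, *Krt18*, *Krt19* and *Cftr*. They were taken by symbol from a table of 16971 genes, and all 9 were found. The table comes from RNA-seq of GFP(+) liver cells of C57BL/6 mice (knock-in from C57BL/6N, reporter from C57BL/6J) of the genotype Prom1CreERT2-nLacZ/+;Rosa26Lsl-GFP/+, of both sexes, the sexes being in unequal shares in the 3 groups. The *Prom1* locus drives a Cre that needs tamoxifen to act and a nuclear LacZ, and the reporter at *Rosa26* makes GFP once Cre has cut out its stop, a mark that daughter cells inherit. In every group, therefore, 1 of the 2 *Prom1* alleles carried the knock-in, and GFP(+) cells need not express *Prom1* when they are sorted. Tamoxifen was given to adults of 6 weeks, 7 days before surgery in every group.

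The control group, called day 0, is sham in the labels and is described in the paper as taken before surgery. The other groups were taken on day 3 (BDL day 3) or day 14 (BDL day 14) after bile duct ligation. Where 3 values follow a gene, they stand in the order day 0, BDL day 3, BDL day 14. Live GFP(+) cells were sorted from the nonparenchymal fraction of the liver after enzymatic digestion. The labels list 3, 3 and 6 libraries, of which 3, 3 and 4 are in the deposited means. The 2 BDL day 14 libraries that were set aside for too few reads are not named. The table gives 1 mean per group in upper quartile normalized counts, the geometric mean over the 10 libraries and the value of the highest library, and its depth per library is unknown. Single libraries could not be tested, and even with them an exact permutation test could go no lower than p = 0.1 for 3 against 3 libraries and p = 0.0571 for 3 against 4. Every comparison here is therefore a description of group means.

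Bile duct ligation blocks the outflow of bile, and the biliary epithelium answers with a ductular reaction, in which small ducts multiply around the portal tract. Cholangiocytes, the cells that line the ducts, share several markers with hepatic progenitor cells, among them *Prom1* (CD133, a membrane glycoprotein) and *Sox9*, a transcription factor. Their cytoskeleton holds the simple epithelial keratins, in which a type II chain (*Krt7* or *Krt8*) pairs with a type I chain (*Krt18* or *Krt19*). *Krt8* and *Krt18* are also made by hepatocytes, whereas *Krt7* and *Krt19* mark the ducts in the adult liver. *Epcam* and *Cdh1* (E-cadherin) are adhesion molecules of epithelial cells, and *Cftr* is the apical chloride channel of cholangiocytes.

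On GRCm38, *Prom1* lies at chr5:43993620-44102032 (minus strand), *Sox9* at chr11:112782224-112787760 (plus), *Epcam* at chr17:87635979-87651129 (plus), *Cdh1* at chr8:106603351-106670246 (plus) and *Cftr* at chr6:18170687-18322768 (plus). *Krt19* lies in the type I keratin cluster at chr11:100140810-100148665 (minus). *Krt7* (chr15:101411043-101430313, plus), *Krt8* (chr15:101996698-102004482, minus) and *Krt18* (chr15:102028180-102032027, plus) lie on one chromosome, and 23.7 kb separate the end of *Krt8* from the start of *Krt18*. Antisense genes are annotated over *Prom1*, *Krt7* and *Cftr*, and a noncoding RNA gene on the opposite strand over *Krt8*. On the same strand, a processed transcript is annotated over *Prom1* and a pseudogene within *Cftr*. Whether strand was used in the counting is not given in the sources used here, so reads of these genes and their partners cannot be told apart. For the partners on the same strand, strand would not separate them.

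RefSeq promoter windows (GRCm38.p6, the 250 bases before the start) were matched for 6 of the 9 genes. The windows of *Epcam*, which was low at BDL day 3, and of *Cftr*, which was low in all groups, are shown because they hold no annotated exon and differ in base composition. GC content was 56.4% for *Epcam* (chr17:87635729-87635978, plus strand) and 76.4% for *Cftr* (chr6:18170437-18170686, plus strand). Capitals mark the GC box GGGCGG, read on either strand.
Epcam: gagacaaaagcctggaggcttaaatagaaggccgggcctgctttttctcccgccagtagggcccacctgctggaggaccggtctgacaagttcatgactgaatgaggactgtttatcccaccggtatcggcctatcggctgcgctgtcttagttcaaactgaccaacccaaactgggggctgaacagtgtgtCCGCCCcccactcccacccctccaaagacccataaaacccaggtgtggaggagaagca
Cftr: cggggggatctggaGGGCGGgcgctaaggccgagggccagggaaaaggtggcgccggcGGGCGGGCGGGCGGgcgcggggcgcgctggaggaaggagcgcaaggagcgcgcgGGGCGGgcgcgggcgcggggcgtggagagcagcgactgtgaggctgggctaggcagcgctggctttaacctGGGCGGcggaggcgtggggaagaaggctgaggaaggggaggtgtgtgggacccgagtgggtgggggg
The GC box occurred once in *Epcam*, 58 to 53 bases before the start on the minus strand, and 6 times in *Cftr*, 3 of which overlap in 1 run. It was present in 32.7% of all 32851 promoter windows. Neither window held TATAAA (12.4% of all windows) or GTGGGAA, the core letters bound by RBPJ (5.42%), on either strand. Of the other matched genes, the *Krt8* window held GTGGGAA once, the *Prom1* windows held 1 GC box, the *Krt7* window 4, and the *Krt18* window none of these motifs. The *Prom1* window with the GC box lay in annotated exons over all its 250 bases, and the other *Prom1* window over none. Annotated exons also covered 205 bases of the *Krt7* window, 140 of the *Krt8* window and 36 of the *Krt18* window.

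*Krt8* and *Krt18* had the highest levels in every group. The means of *Krt8* were 57.2, 60.1 and 60.9 normalized counts, and those of *Krt18* were 52.4, 45.3 and 50.5. *Krt19* (21.5, 12.7 and 14.3) and *Cdh1* (28.3, 7.28 and 14.2) came next, then *Epcam* (12.9, 4.97 and 7.69) and *Krt7* (10.9, 5.61 and 10.7). *Prom1* (6.66, 0.956 and 1.76) and *Sox9* (4.26, 1.18 and 0.853) were low, and *Cftr* (1.56, 0.589 and 0.582) was lowest. The median gene stood at 12.8, 11.5 and 11.9 normalized counts among the 12889 genes whose values summed to at least 10 over the 10 libraries, called here the genes kept. *Cftr* did not pass this minimum, which left 8 of the 9 members in the counts.

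The table lists no gene at 0. The lowest mean was 0.128 at day 0, shared by 984 genes, 0.0729 at BDL day 3, shared by 1284, and 0.0610 at BDL day 14, shared by 550. All 9 genes lay above it in every group. *Krt8* stood at 447, 824 and 998 times the lowest mean of the group, and *Krt18* at 409, 621 and 828 times. *Cdh1* stood at 221, 99.9 and 233 times, *Krt19* at 168, 174 and 234 times, *Epcam* at 101, 68.2 and 126 times and *Krt7* at 85.2, 77.0 and 175 times. Since the lowest mean was itself lower after BDL, *Krt19*, *Epcam* and *Cdh1* at BDL day 14 were a larger multiple of it than at day 0 although their means were lower. *Prom1* stood at 52.0, 13.1 and 28.9 times, *Sox9* at 33.3, 16.2 and 14.0 times and *Cftr* at 12.2, 8.08 and 9.54 times.

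**Figure D1:**
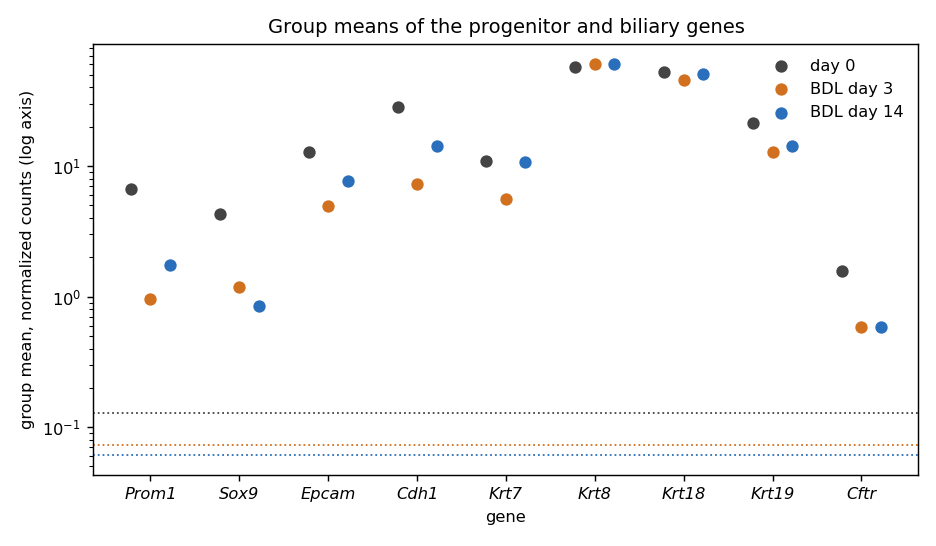
Group means of the 9 genes in normalized counts (log axis) in the 3 groups, 1 point per group, with dotted lines at the lowest mean of each group (0.128, 0.0729 and 0.0610). Points of *Krt8* lie between 57.2 and 60.9 and nearly coincide, whereas those of *Prom1* run from 6.66 at day 0 to 0.956 at BDL day 3.

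For levels between genes, the means were divided by the length of the exons. At day 0 the order was *Krt18* (36.5 normalized counts per kb), *Krt8* (29.2), *Krt19* (11.6), *Cdh1* (6.19), *Epcam* (5.88), *Krt7* (1.55), *Sox9* (1.03), *Prom1* (0.928) and *Cftr* (0.201). An estimate of the spread within groups, as an SD on the log2 scale, was made from the gap between the group means and the geometric mean over the 10 libraries. It takes the spread as equal in the 3 groups. By this estimate, the neighbours *Krt18* and *Krt8*, *Cdh1* and *Epcam*, *Krt7* and *Sox9*, and *Sox9* and *Prom1* did not differ beyond their spread at day 0. *Krt19* was below *Krt8* by 1.33 (log2 per kb) against an SD of 0.68, and *Krt7* was below *Epcam* by 1.93 against an SD of 1.10.

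After BDL the 3 most abundant keratins kept their places per kb, while *Epcam* stood above *Cdh1*, within their spread. *Krt8* and *Krt18* together made up 70.6%, 83.8% and 80.2% of the summed level per kb of the 9 genes. The part of *Krt19* was 12.5%, 9.23% and 9.33%, that of *Cdh1* 6.65%, 2.14% and 3.76% and that of *Prom1* 0.998%, 0.180% and 0.297%. Within the keratin pairs, *Krt8* stood at 0.801, 0.974 and 0.885 of *Krt18* per kb, and *Krt7* at 0.133, 0.116 and 0.197 of *Krt19*. The level of *Prom1* per kb was 0.0801, 0.0195 and 0.0318 of that of *Krt19*.

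The first comparison asks how the labelled lineage looked 3 days after ligation. Of the 8 members kept, 7 had a lower mean at BDL day 3 than at day 0, and 6 were lower by more than 1.5-fold, the fold the study uses, against 29.2% of all genes kept. None was higher by more than 1.5-fold, against 19.2% of all genes. Their median log2 ratio was -1.17, and that of all genes kept was -0.02 with quartiles at -0.77 and 0.45. In sorted bulk cells, fewer cells of a type and less RNA per cell cannot be told apart.

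The progenitor genes had low ratios and the widest spread of the 8. The mean of *Prom1* was 6.97-fold lower at BDL day 3 (log2 ratio -2.80, 2.35 times its within-group SD of 1.19). The mean of *Sox9* was 3.61-fold lower (-1.85), which is 1.03 times its SD of 1.79. A lower log2 ratio than that of *Prom1* was found in 5.23% of the genes kept.

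The adhesion genes were also low at BDL day 3. *Cdh1* was 3.89-fold lower (log2 ratio -1.96, 2.72 times its SD of 0.72), the widest difference of the 8 relative to spread, and *Epcam* had a log2 ratio of -1.38 (1.66 times its SD of 0.83). The ductal keratins followed at smaller ratios. *Krt7* was 1.94-fold lower (-0.96, 0.87 times its SD of 1.10) and *Krt19* was 1.69-fold lower (-0.76, 1.15 times its SD of 0.66). *Krt18* (-0.21) and *Krt8* (0.07) differed by at most 0.34 times their SDs of 0.62 and 0.68. *Cftr*, below the minimum, had a log2 ratio of -1.41, 0.67 times its SD of 2.09.

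At BDL day 14 the means of the same 7 members were below day 0, and 5 were lower by more than 1.5-fold, against 28.8% of all genes kept. None was higher by more than 1.5-fold, against 21.2% of all genes. The median log2 ratio was -0.67, and that of all genes kept was -0.04. *Sox9* was 4.99-fold lower (log2 ratio -2.32, 1.29 times its SD), *Prom1* was 3.78-fold lower (-1.92, 1.61 times its SD) and *Cdh1* was 1.99-fold lower (-0.99, 1.38 times its SD). *Epcam* (-0.75) and *Krt19* (-0.59) were lower by less than their SD, and *Krt19* lay just past the 1.5-fold threshold. *Krt7* (-0.03), *Krt18* (-0.05) and *Krt8* (0.09) had means near those of day 0, and the signs of *Krt7* and *Krt18* turn when the groups are scaled to an equal sum. Without 1 BDL day 14 library the log2 ratio of *Krt7* was -1.46, and 6 members were lower by more than 1.5-fold. Since both comparisons use the same day 0 libraries, they are not independent.

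Between BDL day 3 and BDL day 14, 7 of the 8 members had the higher mean at BDL day 14, and 4 of them were higher by more than 1.5-fold, against 21.2% of all genes kept. These were *Cdh1* (1.95-fold, log2 ratio 0.96, 1.34 times its SD), *Krt7* (1.91-fold, 0.93), *Prom1* (1.84-fold, 0.88) and *Epcam* (1.55-fold, 0.63), the last 3 by less than their SD. The direction of *Krt7* rests on 1 BDL day 14 library, without which its log2 ratio was -0.50 and 3 members were higher by more than 1.5-fold. *Sox9* was the exception, 1.38-fold lower (-0.47) at BDL day 14, which is 0.26 times its SD. None of the 8 was lower by more than 1.5-fold, against 19.7% of all genes. The median of the members was 0.40.

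**Figure D2:**
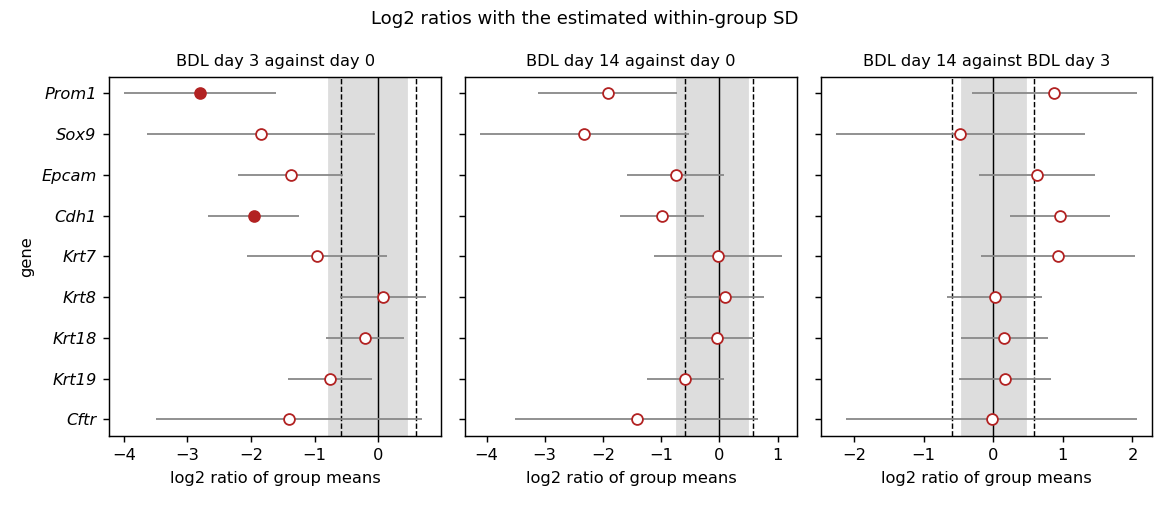
Log2 ratios of group means (x axis) for the 9 genes (y axis) in the 3 comparisons, with a bar of 1 estimated within-group SD to each side, dashed lines at 1.5-fold and a grey band between the quartiles of all genes kept. Filled points mark *Prom1* and *Cdh1* at BDL day 3, where no library of the 2 groups can overlap, and *Krt8* and *Krt18* lie inside the band in all 3 panels.

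The deposited summaries also limit what single libraries can have been. With 3, 3 and 4 libraries per group, each group mean fixes a sum, and the highest library and the geometric mean narrow the rest. For *Prom1* the highest library, at 8.68 normalized counts, can only have been a day 0 library. The other 2 day 0 libraries then had a mean of 5.65 and lay between 2.55 and that highest value, the BDL day 3 libraries lay between 0.0391 and 2.51, and the BDL day 14 libraries between 0.0695 and 5.41. All *Prom1* values at BDL day 3 were thus below all day 0 values, whereas overlap at BDL day 14 is possible.

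*Cdh1* showed the same separation. Its day 0 libraries lay between 19.9 and 32.2, and those of BDL day 3 between 1.48 and 15.6. Its highest library, at 32.2, may be of day 0 or of BDL day 14. *Prom1* and *Cdh1* were 2 of the 8 members whose day 0 and BDL day 3 libraries cannot overlap with day 0 higher, against 4.22% of all genes kept, and no member did so with BDL day 3 higher (3.46% of all genes). No member had groups that cannot overlap at BDL day 14 against day 0 (4.78% of all genes lower and 3.24% higher) or against BDL day 3 (2.73% lower and 1.78% higher).

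For the other members, libraries of different groups may overlap. *Epcam* lay between 6.02 and 16.2 at day 0 and between 0.792 and 11.2 at BDL day 3, so that a BDL day 3 library may have reached a day 0 library. The highest *Sox9* library (6.94) was a day 0 library and held 54.3% of that group's sum, which left a mean of 2.92 for the other 2. Without it the log2 ratios of *Sox9* to day 0 were -1.31 (BDL day 3) and -1.78 (BDL day 14). The highest *Cftr* library (2.55) was likewise of day 0, with 54.5% of the sum, and without it the ratios of *Cftr* were -0.85 and -0.87.

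In *Krt7* 1 library held most of a group's sum. Its highest library, at 30.9 normalized counts, can only have been of BDL day 14 and held 72.2% of that group's sum. The other 3 BDL day 14 libraries had a mean of 3.97 and lay between 2.11 and 6.36, and the day 0 libraries between 5.73 and 17.2. These ranges touch one by one, but, once the deposited geometric mean and both sums are met jointly, none of the other 3 can have reached a day 0 library. Without the highest library, *Krt7* was 2.75-fold lower at BDL day 14 than at day 0 (log2 ratio -1.46) and 1.41-fold lower than at BDL day 3 (-0.50).

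*Krt8*, *Krt18* and *Krt19* had wide possible ranges in every group. *Krt8* libraries other than the highest (124) lay between 28.9 and 91.4 at day 0, between 25.1 and 96.1 at BDL day 3 and between 20.2 and 70.2 at BDL day 14. The highest *Krt8* library can only have been of a BDL group. Had it been of BDL day 3, it would have held 68.8% of that group's sum and left a mean of 28.2 for the other 2. Those of *Krt18* (97.6) and *Krt19* (31.6) can have been of day 0 or of BDL day 14, not of BDL day 3. At day 0, that of *Krt18* would have held 62.1% of the sum and left a mean of 29.8 for the others. The near equality of the *Krt8* and *Krt18* means was therefore one of averages, and single libraries of these genes may have differed several-fold within a group.

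**Figure D3:**
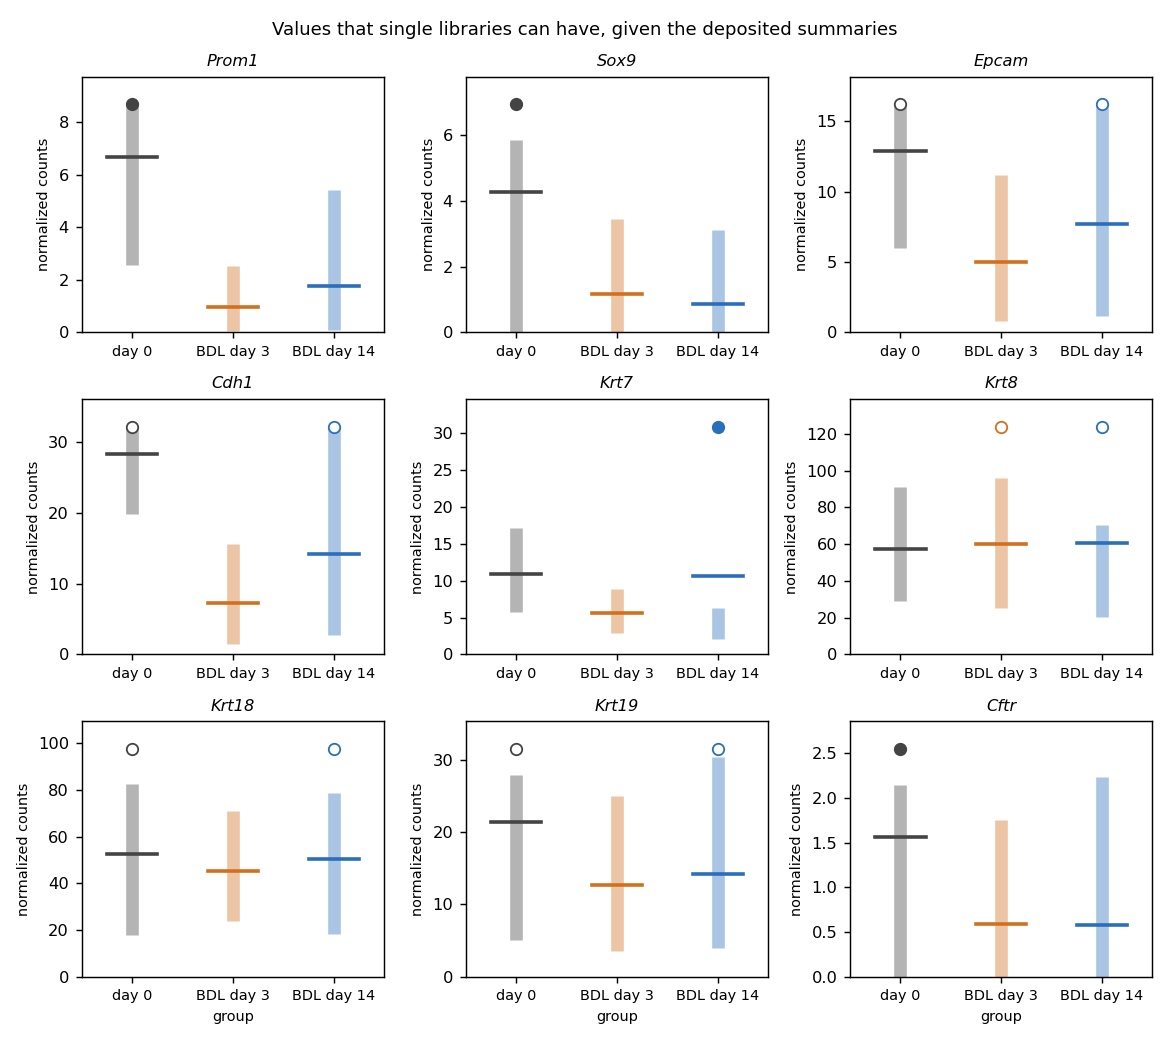
Values in normalized counts (y axes, separate for each gene) that single libraries can have in each group (x axes): lines are the deposited group means, bars the possible range of the libraries other than the highest, filled circles the highest library where only 1 group can hold it and open circles where 2 can. In the *Krt7* panel the highest BDL day 14 library stands at 30.9 above a bar that ends at 6.36, and in the *Prom1* and *Cdh1* panels the bars of day 0 and BDL day 3 do not overlap.

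The other 19 biliary genes of the list were also lower on the whole at BDL day 3. Of the 15 that passed the minimum, 13 were lower than day 0 by more than 1.5-fold (29.2% of all genes kept) and none was higher by that much (19.2% of all), with a median log2 ratio of -1.49 beside -0.02 for all genes kept. In 4 of them, *Spp1*, *Pkhd1*, *Bicc1* and *Krt23*, no library of BDL day 3 can have reached day 0, which holds for 4.22% of all genes kept. *Bicc1*, an RNA-binding protein of kidney and bile duct epithelium, showed group means of 15.3, 1.74 and 4.68 normalized counts. *Spp1* (osteopontin, also made by macrophages) had means of 459, 175 and 792, and *Aqp1*, a water channel also of endothelial cells, 367, 107 and 715. *Cd24a*, a surface glycoprotein, had means of 84.6, 22.4 and 88.4.

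At BDL day 14, 10 of these 15 genes were lower than day 0 by more than 1.5-fold (28.8% of all genes kept) and 3 were higher (21.2% of all), *Cldn4* (log2 ratio 1.49), *Aqp1* (0.96) and *Spp1* (0.79, and 0.57 without its highest library). The median was -1.26 beside -0.04 for all genes kept, and *Pkhd1* and *Bicc1* had no possible overlap with day 0 (4.78% of all genes lower). Against BDL day 3, 7 of the 15 were higher by more than 1.5-fold (21.2% of all genes kept) and 1 was lower (19.7% of all). *Spp1* and *Bicc1* then had no library of BDL day 14 that can have reached down to BDL day 3 (1.78% of all genes higher).

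Among the other progenitor genes, *Prom2*, *Lgr5* and *Foxl1* were not among the genes listed, *Ncam1* was below the minimum, and 2 were kept. *Sox4*, a transcription factor of the same family as *Sox9*, stood at 0.723 normalized counts at BDL day 3 and at 6.16 at BDL day 14, with a log2 ratio to day 0 of -3.54 at BDL day 3 and -0.45 at BDL day 14. *Tnfrsf12a*, the receptor of the cytokine TWEAK, had means of 4.04, 8.12 and 6.69, highest at BDL day 3.

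Of the genes of cell junctions, 12 of 13 passed the minimum. At BDL day 3, 6 were lower than day 0 by more than 1.5-fold (29.2% of all genes kept) and none higher (19.2% of all), with a median of -0.93. *Dsp* (9.92, 2.62 and 3.50), a desmosomal plaque protein, and *Dsg2* (23.4, 4.81 and 9.27), a desmosomal cadherin, had day 0 and BDL day 3 libraries that cannot overlap. At BDL day 3 the catenins that bind E-cadherin had ratios nearer to 0 than *Cdh1*. *Ctnnb1* (132, 94.7 and 166), *Ctnna1* (151, 143 and 105) and *Ctnnd1* (179, 263 and 93.7) had log2 ratios to day 0 of -0.48, -0.08 and 0.56 then, and of 0.33, -0.52 and -0.93 at BDL day 14, beside -0.99 for *Cdh1*. *Jup* (plakoglobin, also a catenin) was at 54.5, 52.7 and 16.4, with log2 ratios of -0.05 and -1.73. At BDL day 14, 6 junction genes were lower by more than 1.5-fold (28.8% of all genes kept) and 2 higher, near the share of all genes (21.2%), with a median of -0.73. Of the 6 epithelial transcription and splicing factors, 3 passed the minimum, *Esrp2*, *Elf3* and *Ehf*, with low group means of at most 5.15 normalized counts. All 3 were lower by more than 1.5-fold at BDL day 3 (29.2% of all genes kept), with a median of -1.48. *Esrp2* and *Elf3* passed the minimum only with their day 0 values, so this count is partly set by the minimum. At BDL day 14, 2 of them were lower by that much (28.8% of all). Without its highest library, which was of day 0, *Ehf* was higher at BDL day 14 than at day 0 (log2 ratio 0.30).

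The table lists 12 keratin genes, of which 7 passed the minimum. *Krt8*, *Krt18*, *Krt19*, *Krt7* and *Krt80* reached a mean of 10 in a group. *Krt80*, a keratin of stratified epithelia, had means of 3.58, 5.11 and 12.2, the highest at BDL day 14. *Krt17* had means of 0.167, 1.00 and 2.04, but 1 BDL day 14 library, at 6.73 normalized counts, held 82.5% of that group's sum. Without it the other 3 had a mean of 0.477, below that of BDL day 3 (log2 ratio -1.07). *Krt23*, which is also in the biliary list, had means of 7.78, 2.27 and 2.63. At BDL day 3, 3 of the 7 keratins were lower by more than 1.5-fold (29.2% of all genes kept) and 1, *Krt17*, was higher (19.2% of all). At BDL day 14, 2 were lower and 2, *Krt80* and *Krt17*, higher, near the shares of all genes (28.8% and 21.2%). *Krt17* passed the minimum only with its highest library, and its day 0 mean of 0.167 lay near the lowest mean of 0.128. Reads of *Krt8* can be shared with its pseudogenes, and *Krt8-ps* was listed at 0.173, 0.288 and 0.630.

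By the distance between their pairs of log2 ratios to day 0, the genes most like *Prom1* were *Wwc1* (0.086), *Lhfp* (0.109) and *Chmp4c* (0.117), among 4660 genes within 2-fold of its day 0 mean. *Wwc1* had means of 7.12, 1.08 and 1.84 normalized counts. Those most like *Epcam* were *Zfp788* (0.034), *Rhod* (0.034) and *Clec4b1* (0.036) among 5419 genes, and those most like *Krt19* were *Mapk8ip3* (0.008), *Efnb1* (0.010) and *Asprv1* (0.025) among 4973. Each likeness rests on 3 group means.

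The labelled cell type was checked against other cells that a nonparenchymal preparation can hold. Per kb of exon, the median of 11 macrophage genes was 687, 2036 and 213 normalized counts per kb, beside 2.19, 0.980 and 1.15 for the 19 biliary genes, so that macrophage genes stood above biliary genes in every group of these sorted cells. All 11 macrophage genes lay above the lowest mean in every group, their means summing to 19632, 39881 and 10692 normalized counts with single genes between 252 and 4610, 522 and 7440, and 12.1 and 3640. At BDL day 3, 10 of the 11 were higher than day 0 by more than 1.5-fold (19.2% of all genes kept). The median log2 ratio of the 11 was 1.05, where *Prom1*, *Epcam* and *Cdh1* were lower. At BDL day 14, 6 of the 11 were lower than day 0 by more than 1.5-fold (28.8% of all). None was higher by that much (21.2% of all), and their median was -0.80. The 10 hepatocyte genes summed to 3749, 1034 and 425, the 10 mesenchymal genes to 1427, 27.0 and 133 and the 8 sinusoidal endothelial genes to 1019, 589 and 996. Of the 10 hepatocyte genes, 8 were lower by more than 1.5-fold at BDL day 3 (29.2% of all genes kept). All 10 were at BDL day 14 (28.8% of all), and the medians were -1.81 and -3.00. In the mesenchymal list all 10 genes were lower by more than 1.5-fold at both times (29.2% and 28.8% of all genes kept). Of these, *Lrat*, *Reln*, *Des* and *Pdgfrb* passed the minimum only with their day 0 values, so the count is partly set by the minimum. The medians of the mesenchymal list were -5.40 and -3.38. Of the 8 endothelial genes, 7 were lower by more than 1.5-fold at BDL day 3 (29.2% of all). The part of these other lists in the values of the 9 genes was not tested. *Epcam* and *Krt19*, the defining biliary markers, were above the lowest mean in all groups, as were all 11 macrophage genes. A place above the lowest mean therefore does not tell which cell type was sorted.

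**Figure D4:**
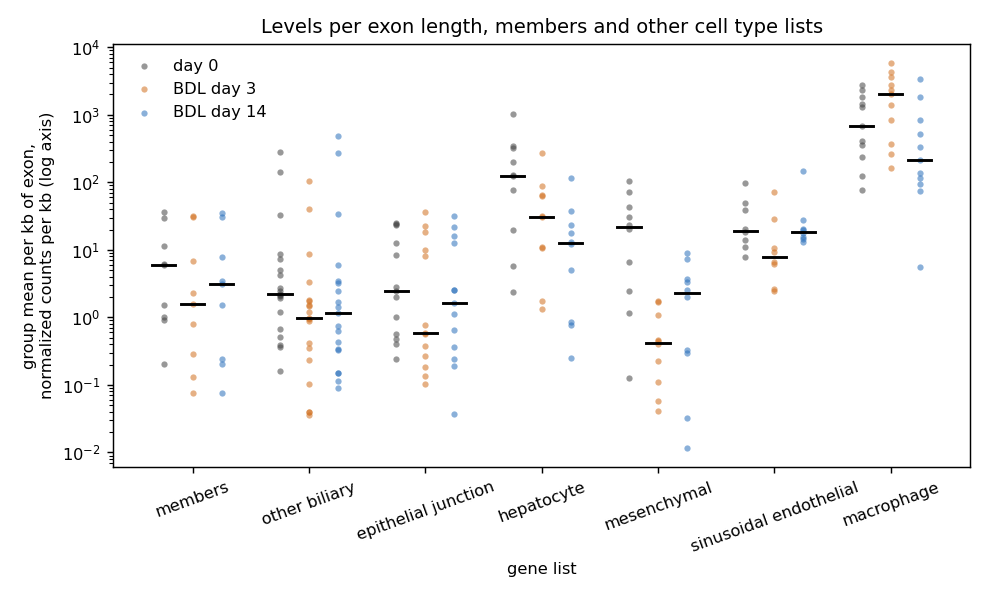
Group means per kb of exon (log axis) for the 9 genes and 6 gene lists (x axis), 1 point per gene and group, with a bar at the median of each group. The macrophage medians (687, 2036 and 213) lie above all other lists, and the biliary, junction, mesenchymal and endothelial medians are lowest at BDL day 3.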

How the data were processed

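RNA-seq of sorted GFP(+) liver cells was analysed from 1 deposited table. The authors trimmed the reads (minimum quality 20, minimum length 25 bp) and, in Partek Flow, aligned them with STAR (2.5.3a in the methods, 2.6.1d in the submitters' processing notes) to mm10, counted them on GENCODE M18 and normalized them by the upper quartile with at least 10 reads. The deposited signal values are the authors' least squares means of the normalized counts of each group and their arithmetic mean over 10 libraries, beside the geometric mean and the highest library, which is not named. Weights of 3, 3 and 4 libraries gave back the arithmetic mean within 0.678%, so the least squares means were read as plain means. The table has 0 columns of single libraries. Its p-values, FDR, ratios, fold changes and 95% limits hold the authors' own comparisons of the 3 groups and were not used. Counting error could not be given, since depth is unknown.

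Ratios were computed from group means without a pseudocount, for genes with a sum of at least 10 over the libraries. Each library was bounded by a search over the values that give the deposited means and highest library (Python 3.11.15, numpy 2.4.6, pandas 2.3.3), and groups were said not to overlap where no such set of values lets them. No gene kept had summaries that contradict each other (0 genes). The within-group SD was approximated from the geometric mean (7 degrees of freedom) and is rough for low genes. These bounds and the SD were chosen after the data were seen, and the search was tested on simulated data. Replicates are separate samples in the labels, and the paper counts them as single mice of either sex. Exon lengths and positions came from GENCODE M21, in which 16934 symbols (99.8%) have the coordinates of the table. The members and gene lists were chosen with earlier results of these data known. The genes named are the 9 members, keratins with a mean of at least 10, up to 5 genes of each epithelial list by level or fold, and the 3 nearest genes to *Prom1*, *Epcam* and *Krt19*. *Cldn4*, *Pkhd1*, *Tspan8*, *Krt23*, *Krt17*, *Krt8-ps* and the genes named for a count were added after their values were seen. Some genes of the lists are counted but not reported by name here. The alternatives were other filters, pseudocounts, scalings and folds, the highest library left out, the 1st percentile as the lowest level and the longest transcript as the length.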

Additional observations from a re-analysis of the deposited data

Results flagged for a closer look

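The highest *Krt7* library of BDL day 14, at 30.9 normalized counts, stood far from the other 3 libraries of its group. In every set of values that the deposited summaries allow, its gap to the nearest other library was at least 0.852 of the range of the group, above Dixon's 95% critical value for 4 values. For normally distributed values, chance passes it, at the top or at the bottom, in about 1 in 20 groups. Only the top was looked at here, and normalized counts need not be normally distributed. Of the 12889 genes kept, 1744 have a highest library that can only be of BDL day 14, and 16 (0.124% of all kept) were shown to have such a gap there. The highest BDL day 14 library of *Krt17*, at 6.73 normalized counts, was also among these 16, with a gap of at least 0.870 of the range. The summaries cannot show such a gap for most genes. The table does not say whether both values are of 1 library, and the cause was not tested.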

How the results depend on the processing

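Of 90 values of the member counts and medians under an alternative, 78 kept their direction and stayed within limits, and of the 116 log2 ratios of single members that an alternative could move, 114 moved by less than the within-group SD. Leaving out the highest library where it can be placed took *Krt7* to -1.46 at BDL day 14 against day 0 and turned it to -0.50 against BDL day 3, so that 2 members, not 1, were below BDL day 3. In the other epithelial genes, an alternative added after the data were seen, it turned *Krt17* to -1.07 against BDL day 3 and *Ehf* to 0.30 at BDL day 14 against day 0. *Tspan8*, of the biliary list, went from 0.49 to -0.25 at BDL day 14 against day 0. The ratios to day 0 of *Dsp* went to -1.32 (BDL day 3) and -0.90 (BDL day 14), by more than its SD. Those of *Bicc1* went to -2.67 and -1.24, also by more than its SD. With no filter on low values, *Cftr* also counted and 2 of 9 members were below BDL day 3. A mean of at least 10 left 4 members, by construction with smaller counts: 3 below day 0 and 2 lower past 1.5-fold in either BDL group, and, of BDL day 14 against BDL day 3, 0 below and 1 higher past 1.5-fold. With a pseudocount of 1, 2 members were higher past 1.5-fold at BDL day 14 against BDL day 3, the pseudocount shrinking low genes. A fold of 2 left 2 members lower at BDL day 14 against day 0 and 0 higher against BDL day 3. Scaling to an equal sum shifted all log2 ratios to day 0 by 0.13 (BDL day 3) or 0.33 (BDL day 14), and those between the BDL groups by 0.20, and left 3 members lower past 1.5-fold at BDL day 14. Median-ratio scaling shifted them by 0.02 and 0.03 against day 0. No paired analysis was possible because the labels give no number that pairs libraries across groups and the table has no single libraries, so no replicate could be left out in turn either.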
